A study of Homo sapiens with 12 samples.

Results

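The zinc finger genes whose symbol is ZNF followed by a number below 400 were followed across 3 human cancer cell lines and 4 treatments. The members were the protein-coding genes with such a symbol, with or without a single final letter, and with at least 1 probe set that names no other gene. The array held 189 such symbols, 5 of them pseudogenes, which left 184 members among 19775 genes measured. The members were chosen by name, and the class was selected on measured values, because it leaned lower with guanine-quadruplex (G4) oligonucleotides, so its average difference between G4 oligonucleotides and controls is given as a description only. The rule reads names, and a few members are not classical zinc finger repressors. ZNF185, for instance, is an actin-associated LIM domain protein.

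Each line was reverse transfected with Lipofectamine RNAiMAX and kept as 3D culture in plates that cells do not stick to. The labels give HBC4 as a breast, MKN74 as a gastric and PC-3 as a prostate cancer line. The 4 treatments were the reagent alone, the RNA (uuaccc)4, the RNA (uuaggg)4 and AS1411, with about 100 pmol of oligonucleotide per well and 300000 cells. RNA was harvested at 72 h and hybridised to 12 Affymetrix arrays, 1 for each line and treatment. (uuaggg)4 carries the repeat of telomeric RNA, which folds into a G4, and (uuaccc)4 carries cytosines in place of its guanines. AS1411 is a guanine-rich DNA aptamer that folds into a G4 and binds nucleolin. All 12 arrays share the transfection reagent, and no untransfected cells were analysed here.

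Most numbered ZNF genes encode proteins with arrays of C2H2 fingers, each finger holding a zinc ion and reading a few bases of DNA. Many also carry a KRAB domain, which recruits the scaffold protein TRIM28 (KAP1) and the histone methyltransferase SETDB1 and so silences chromatin around the bound site, often at transposable elements. The genes multiplied by duplication in tandem, and many lie in clusters on chromosome 19, so neighbours can share sequence, and array probes can read more than 1 of them.

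Values are log2 and were deposited centred, so that each probe set has a median of 0 over the 12 arrays. They show differences between arrays and carry no level, and no detection call could be made. A fall in a line may therefore end at the background of the probe set, in which case its size would be understated. Within a line the only repeat arrays are those of other treatments, so SDs (n = 4 arrays) and p-values rest on the spread between arrays of different treatment, and nothing in the labels names separate cultures. In such bulk RNA, fewer cells of a type and less RNA per cell cannot be told apart.

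The line labels were set against tissue markers before any result. Of 6 prostate markers measured, 3 were highest on the PC-3 arrays and all 3 passed the test between lines. KLK2, KLK3 and SLC45A3 were highest on the HBC4 arrays, and of these SLC45A3 passed (F test, adjusted p = 1.02e-07). Of 9 breast markers, 6 were highest on the HBC4 arrays and 5 of these passed. XBP1 was highest on the PC-3 arrays and passed (F test, adjusted p = 0.00936), and TFAP2B and PGR were highest on the MKN74 arrays without passing. Of 8 gastric markers, 3 were highest on the MKN74 arrays and none of these 3 passed, while TFF1 (line means 8.15 in PC-3, -0.09 in HBC4 and -0.15 on the MKN74 arrays), TFF2, VSIG1, ANXA10 and MUC5AC were highest on the PC-3 arrays. The label of MKN74 as a gastric line was thus not borne out by this list, and the line names below are those of the labels. Of 6 markers of neuroendocrine, blood, vessel and stromal cells, PECAM1 alone passed (2.55 in PC-3, -0.07 in HBC4 and -0.65 on the MKN74 arrays). The part of these differences in the results below was not tested.

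The stretch before the start of transcription is shown for 6 members named below. All of these windows hold a match to a marked pattern, so they do not stand for the members as a whole. Each is the 250 bases upstream of the start, 5′ to 3′ on the strand of the gene, from RefSeq on GRCh38.p14. Of the 184 members, 158 had an entry, and where several windows were listed for a gene (37 members) the first was used. Capitals in the first 5 mark matches to the ACTACA pattern, which is ACTACA, any 2 bases and TCCCA, on either strand (on the strand shown it can also read TGGGA, any 2 bases, TGTAGT). These letters are the core of the site bound by the activator ZNF143, itself a member. They were chosen for the search after the windows of the members with large line differences had been read. In ZNF83 the capitals mark 4 or more runs of at least 3 G, or of 3 C for the other strand, with 1 to 7 bases between runs, a pattern that can fold into a G4. ZNF140 (chr12:133080673-133080922, plus strand) and ZNF268 (chr12:133181245-133181494, plus strand) lie near the end of the long arm of chromosome 12. ZNF283 (chr19:43827071-43827320, plus strand), ZNF234 (chr19:44141304-44141553, plus strand), ZNF331 (chr19:53520764-53521013, plus strand) and ZNF83 (chr19:52690497-52690746, minus strand) lie on chromosome 19.
ZNF140: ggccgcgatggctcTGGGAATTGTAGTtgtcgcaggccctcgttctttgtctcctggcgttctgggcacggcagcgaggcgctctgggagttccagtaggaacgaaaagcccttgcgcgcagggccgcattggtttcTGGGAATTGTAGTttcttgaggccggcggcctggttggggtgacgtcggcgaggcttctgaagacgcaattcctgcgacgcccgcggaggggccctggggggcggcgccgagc
ZNF268: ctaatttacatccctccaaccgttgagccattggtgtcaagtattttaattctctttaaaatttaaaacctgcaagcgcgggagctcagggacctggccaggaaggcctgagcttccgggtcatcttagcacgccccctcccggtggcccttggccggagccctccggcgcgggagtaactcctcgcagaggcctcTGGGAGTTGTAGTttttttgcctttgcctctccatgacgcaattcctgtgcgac
ZNF283: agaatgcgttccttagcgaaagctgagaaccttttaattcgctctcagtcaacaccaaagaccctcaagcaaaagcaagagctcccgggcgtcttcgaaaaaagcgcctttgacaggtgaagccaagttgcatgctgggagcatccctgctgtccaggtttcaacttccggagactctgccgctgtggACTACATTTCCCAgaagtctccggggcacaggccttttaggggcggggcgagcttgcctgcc
ZNF234: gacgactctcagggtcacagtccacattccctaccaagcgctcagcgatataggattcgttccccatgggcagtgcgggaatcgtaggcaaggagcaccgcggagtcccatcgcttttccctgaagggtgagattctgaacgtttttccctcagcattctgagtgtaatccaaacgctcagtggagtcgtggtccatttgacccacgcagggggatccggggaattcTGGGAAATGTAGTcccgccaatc
ZNF331: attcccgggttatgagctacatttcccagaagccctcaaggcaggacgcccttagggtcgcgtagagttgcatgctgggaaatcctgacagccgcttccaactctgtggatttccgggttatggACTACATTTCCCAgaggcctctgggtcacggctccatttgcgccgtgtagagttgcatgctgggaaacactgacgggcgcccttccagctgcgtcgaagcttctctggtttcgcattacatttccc
ZNF83: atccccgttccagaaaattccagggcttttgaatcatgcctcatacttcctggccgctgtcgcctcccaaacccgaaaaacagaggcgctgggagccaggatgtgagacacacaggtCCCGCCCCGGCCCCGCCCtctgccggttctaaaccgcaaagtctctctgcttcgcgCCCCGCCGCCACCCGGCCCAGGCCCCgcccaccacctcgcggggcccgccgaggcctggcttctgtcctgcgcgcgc

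The ACTACA pattern was present in 24 of the 158 member windows (15.2%). It was absent from those of ZNF22, ZNF256, ZNF248, ZNF300, ZNF185 and ZNF10, which also stood apart by line. The share of windows with the pattern was 8.52% over 223 genes numbered ZNF400 to ZNF999, 2.03% over 15843 protein-coding genes and 1.40% over all 27305 genes with an entry. Among the members, 10 of the 24 matches fell in a single run of neighbours on chromosome 19 (10 of the 15 genes of that run with an entry), which are related copies. The G-run pattern was present in 24 of 158 member windows (15.2%), against 28.9% of protein-coding genes and 22.6% of all genes. The medians of CG pairs per window were 17 in members and 17 in protein-coding genes, with quartiles of 12 and 23 in members and 6 and 26 in protein-coding genes. Only 1 member window held both patterns. The matches are matches of letters, and no binding was measured here.

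The members differed between the 3 lines more often than they differed between treatments. In limma's moderated F test between lines, 156 of the 184 members passed an adjusted p of 0.05 (84.8%), against 70.6% of all genes. Related families came close, with 82.5% of 268 genes numbered ZNF400 to ZNF999, 82.9% of 41 ZBTB genes and 85.7% of 7 ZKSCAN genes. The share was 73.7% of 19 ZFP genes and 72.2% of 18 ZSCAN genes. The median distance between a member's highest and lowest line mean was 0.70 on the log2 scale, with quartiles of 0.31 and 1.30. That median was 0.63 over ZNF400 to ZNF999 and 0.50 over all genes. PC-3 held the highest mean of 67 members, HBC4 of 49 and MKN74 of 68. PC-3 held the lowest mean of 72, HBC4 of 59 and MKN74 of 53. Between pairs of lines, 68 members were higher in PC-3 than in HBC4 (37.0%, background 27.3%) and 58 were lower (31.5%, background 29.0%). Of the members, 63 were higher in PC-3 than in MKN74 (34.2%, background 27.0%) and 65 were lower (35.3%, background 33.9%). HBC4 exceeded MKN74 for 55 members (29.9%, background 23.6%) and lay below it for 73 (39.7%, background 28.2%). The tests are on the same 12 arrays, and a share of members was not itself tested against the background.

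Members that stood at least 1 log2 unit apart from both other lines and passed the F test were counted for each line. PC-3 stood above both others for 11 members (5.98%, background 5.79%) and below both for 11 (5.98%, background 3.25%). HBC4 stood above both for 2 members (1.09%, background 3.30%) and below both for 10 (5.43%, background 2.02%). MKN74 stood above both for 8 members (4.35%, background 3.87%) and below both for 7 (3.80%, background 3.62%).

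**Figure D1:**
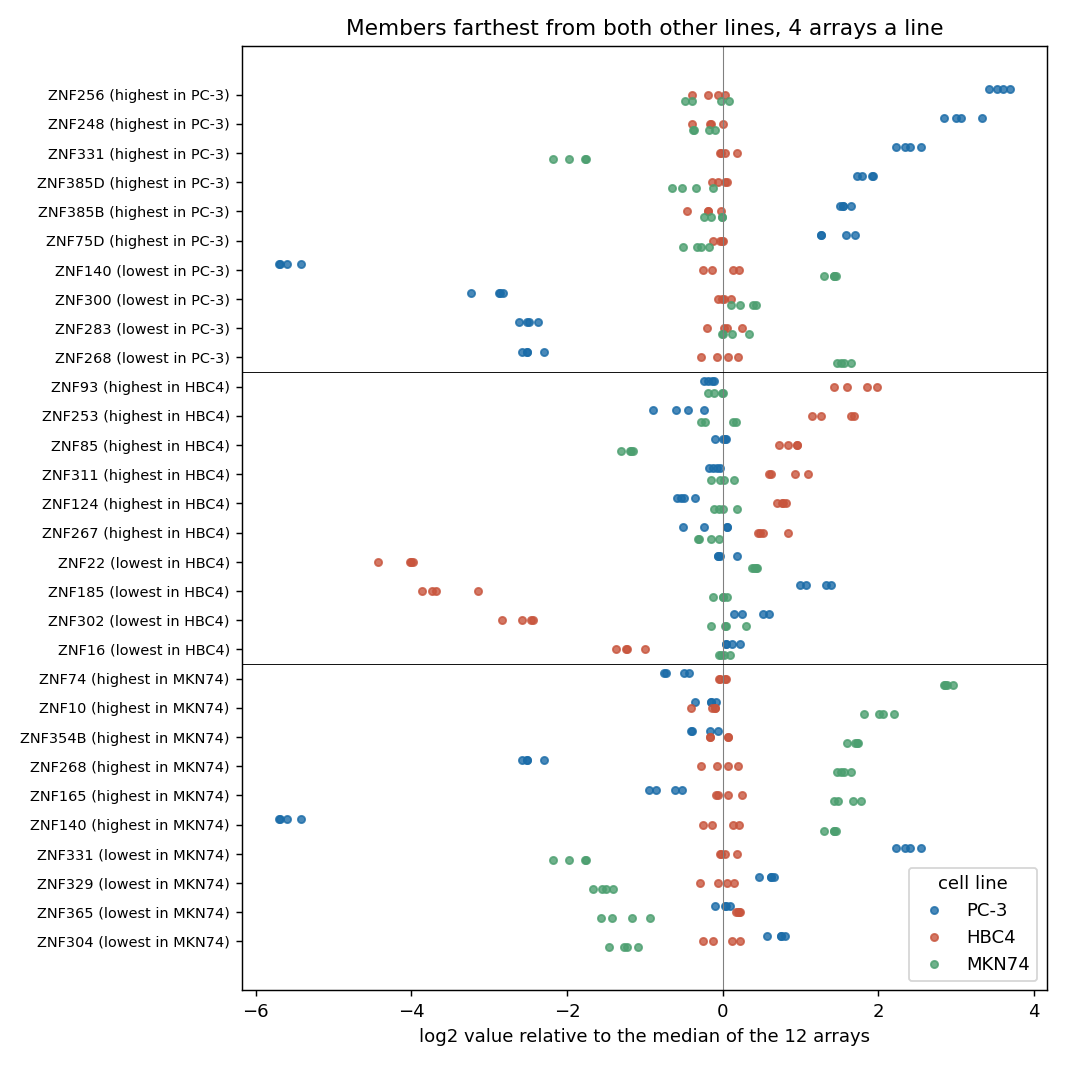
Log2 values relative to the median of the 12 arrays for the 30 member positions named by the line rule, with 4 arrays (points) for each of 3 lines (colours). The PC-3 points of ZNF140 lie near -5.6 and its MKN74 points near 1.4, and the HBC4 points of ZNF22 lie near -4.1.

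The largest fall in a line was that of ZNF140, a KRAB repressor, in PC-3. In the order reagent alone, (uuaccc)4, (uuaggg)4 and AS1411, which holds for every list of values below, ZNF140 read -5.69, -5.42, -5.70 and -5.59 in PC-3. It read 0.21, 0.13, -0.13 and -0.25 in HBC4 and 1.45, 1.43, 1.30 and 1.43 in MKN74. The 3 lines did not overlap, and all 4 PC-3 arrays lay below every other array. The line means were -5.60 ± 0.13, -0.01 ± 0.22 and 1.40 ± 0.07 (SD, n = 4 arrays), so PC-3 was 48.1-fold below HBC4, the nearer line (limma F test, adjusted p = 5.75e-13). ZNF140 has 1 probe set.

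ZNF268, a KRAB gene near it on chromosome 12, had the same order of lines. Its values were -2.51, -2.52, -2.29 and -2.58 in PC-3, 0.06, 0.20, -0.07 and -0.28 in HBC4 and 1.65, 1.52, 1.47 and 1.56 on the MKN74 arrays. PC-3 was 5.48-fold below HBC4 and MKN74 was 2.98-fold above HBC4 (F test, adjusted p = 6.01e-11). Its 3 probe sets ranged from -3.74 to -0.52 in the PC-3 mean, all negative, so the size depends on the probe set. ZNF10 (KOX1), whose KRAB domain is the one commonly fused to DNA-binding proteins to switch genes off, lies between them. It read -0.35, -0.16, -0.08 and -0.16 in PC-3, -0.14, -0.10, -0.41 and -0.10 in HBC4 and 2.20, 2.01, 2.06 and 1.81 on the MKN74 arrays. PC-3 and HBC4 overlapped, and MKN74 stood 4.62-fold above both (F test, adjusted p = 5.57e-09). With ZNF26 and ZNF84, these genes make up 5 members at the end of chromosome 12, a group put together after its values were seen. MKN74 was the highest line for 5 of the 5, and their median distance between highest and lowest line was 2.21.

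Other members low in PC-3 were ZNF300 and ZNF283, both KRAB genes, on chromosomes 5 and 19. ZNF300 had line means of -2.95 ± 0.19 in PC-3, 0.01 ± 0.07 in HBC4 and 0.28 ± 0.15 on the MKN74 arrays, which put PC-3 7.79-fold below the nearer line (F test, adjusted p = 1.99e-10). ZNF283 read -2.62, -2.38, -2.49 and -2.52 in PC-3, and the 8 arrays of the other lines lay between -0.21 and 0.33. PC-3 was 5.77-fold below the nearer line (F test, adjusted p = 2.35e-09).

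On the high side, PC-3 led with ZNF256 and ZNF248, both KRAB genes. ZNF256 read 3.52, 3.69, 3.43 and 3.60 in PC-3, -0.19, -0.39, -0.06 and 0.03 in HBC4 and -0.48, -0.40, 0.08 and -0.03 on the MKN74 arrays. PC-3 was 13.1-fold above the nearer line, and HBC4 and MKN74 overlapped (F test, adjusted p = 1.56e-10). ZNF248 had means of 3.05 ± 0.20 in PC-3, -0.18 ± 0.16 in HBC4 and -0.26 ± 0.14 on the MKN74 arrays, a 9.37-fold step (F test, adjusted p = 2.59e-10). Its 2 probe sets gave PC-3 means of 1.18 and 4.92, which agree in sign and differ in size.

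ZNF331, a KRAB gene that is imprinted in several tissues, was spread over all 3 lines. It read 2.23, 2.40, 2.34 and 2.54 in PC-3, 0.19, 0.03, -0.04 and -0.02 in HBC4 and -2.18, -1.75, -1.98 and -1.77 on the MKN74 arrays. PC-3 was 5.06-fold above HBC4, and MKN74 was 3.89-fold below HBC4, with no overlap between lines (F test, adjusted p = 4.19e-11). ZNF385B and ZNF385D, relatives of the p53 cofactor ZNF385A, also stood highest in PC-3. Their PC-3 means were 1.56 ± 0.06 and 1.84 ± 0.10, the means in HBC4 were -0.21 ± 0.18 and -0.03 ± 0.08, and those in MKN74 were -0.10 ± 0.11 and -0.42 ± 0.23 (F test, adjusted p = 2.02e-08 for ZNF385B and 7.02e-09 for ZNF385D). ZNF75D was the other member of the 6 farthest above, at 1.49 log2 units over the nearer line.

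HBC4 stood apart mostly by low members. ZNF22, a C2H2 protein of the KROX group, read -3.98, -4.00, -4.42 and -4.01 in HBC4, -0.06, -0.04, 0.18 and -0.06 in PC-3 and 0.38, 0.40, 0.44 and 0.43 in MKN74. HBC4 was 17.3-fold below PC-3, the nearer line (F test, adjusted p = 2.58e-11), and its 2 probe sets gave HBC4 means of -4.94 and -3.27. ZNF185 read -3.73, -3.69, -3.87 and -3.14 in HBC4, 0.99, 1.07, 1.33 and 1.39 in PC-3 and between -0.12 and 0.05 in MKN74, 3.59 log2 units below the nearer line (F test, adjusted p = 5.6e-11). ZNF302, a KRAB gene, had means of -2.58 ± 0.18 in HBC4, 0.38 ± 0.21 in PC-3 and 0.06 ± 0.19 in MKN74, a 6.22-fold step (F test, adjusted p = 1.99e-09). ZNF16 was the mildest of these, 2.33-fold below the nearer line (F test, adjusted p = 2.51e-08).

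Of the 6 members farthest above in HBC4, the first 3 were neighbours on chromosome 19. ZNF93, which binds and silences LINE-1 retrotransposons, read 1.98, 1.85, 1.59 and 1.43 in HBC4, -0.19, -0.11, -0.24 and -0.14 in PC-3 and -0.01, -0.12, 0.01 and -0.19 in MKN74. HBC4 was 3.46-fold above the nearer line (F test, adjusted p = 1.23e-08), and the HBC4 means of its 4 probe sets ran from 0.59 to 3.37. ZNF253, a KRAB gene, was 2.80-fold above the nearer line, with means of 1.43 ± 0.27 in HBC4, -0.55 ± 0.27 in PC-3 and -0.05 ± 0.23 in MKN74 (F test, adjusted p = 2.61e-09). ZNF85, ZNF311, ZNF124 and ZNF267 followed at less than 1 log2 unit above the nearer line. ZNF85 had means of 0.87 ± 0.11 in HBC4, -0.01 ± 0.07 in PC-3 and -1.21 ± 0.07 in MKN74 (F test, adjusted p = 1.48e-09).

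MKN74 was set apart upward by ZNF74 most of all, a gene of the chromosome 22 region deleted in DiGeorge syndrome. It read 2.95, 2.85, 2.88 and 2.84 in MKN74, -0.05, 0.05, 0.02 and -0.03 in HBC4 and -0.50, -0.73, -0.43 and -0.76 in PC-3. MKN74 was 7.38-fold above the nearer line (F test, adjusted p = 1.52e-11). ZNF354B, a KRAB gene, and ZNF165, a SCAN domain gene known as a cancer-testis antigen, had MKN74 means of 1.69 ± 0.06 and 1.59 ± 0.16, which were 3.34-fold and 2.93-fold above the nearer line (F test, adjusted p = 6.5e-10 for ZNF354B and 6.52e-09 for ZNF165). Downward, ZNF329 was 2.82-fold, ZNF365 2.44-fold and ZNF304 2.39-fold below the nearer line. ZNF365, whose product takes part in genome stability, read -0.94, -1.16, -1.43 and -1.56 in MKN74 against 0.05, 0.09, -0.11 and 0.03 in PC-3 and 0.22, 0.19, 0.17 and 0.20 in HBC4 (F test, adjusted p = 1.47e-07). Its 2 probe sets disagreed, with MKN74 means of -2.66 and 0.12, so the fall rests on 1 of them.

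At the other end, ZNF208, ZNF154 and ZNF396 had the smallest distance between line means. ZNF154, known for promoter methylation in many tumours, had means of 0.00, 0.05 and -0.01 in PC-3, HBC4 and MKN74 (F test, adjusted p = 0.634). The 4 PC-3 arrays of ZNF208 alone ran from -0.19 to 0.27, wider than the distance between its lines (F test, adjusted p = 0.973). With centred values, a gene not expressed in any line would look the same as a gene expressed equally in all.

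Of the 184 members, 71 lie on chromosome 19, 13 on chromosome 7 and 11 on chromosome 16. Members less than 1 Mb apart on chromosome 19 were joined into runs of at least 5, which gave 4 runs. In the run from ZNF101 to ZNF254 (13 members, among them ZNF253, ZNF93, ZNF85 and ZNF91) HBC4 was the highest line for 8. In the run from ZNF283 to ZNF296 (19 members) PC-3 was the lowest line for 13 and the highest for 2. In the run from ZNF175 to ZNF331 (8 members) PC-3 was the highest line for 6 and the lowest for none. In the run from ZNF71 to ZNF324 (15 members) PC-3 was again the highest line, for 10. Over all members PC-3 was highest for 67 of 184 and lowest for 72. These counts use every member, whether it passed the F test or not, and neighbours may share probes and sequence.

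**Figure D2:**
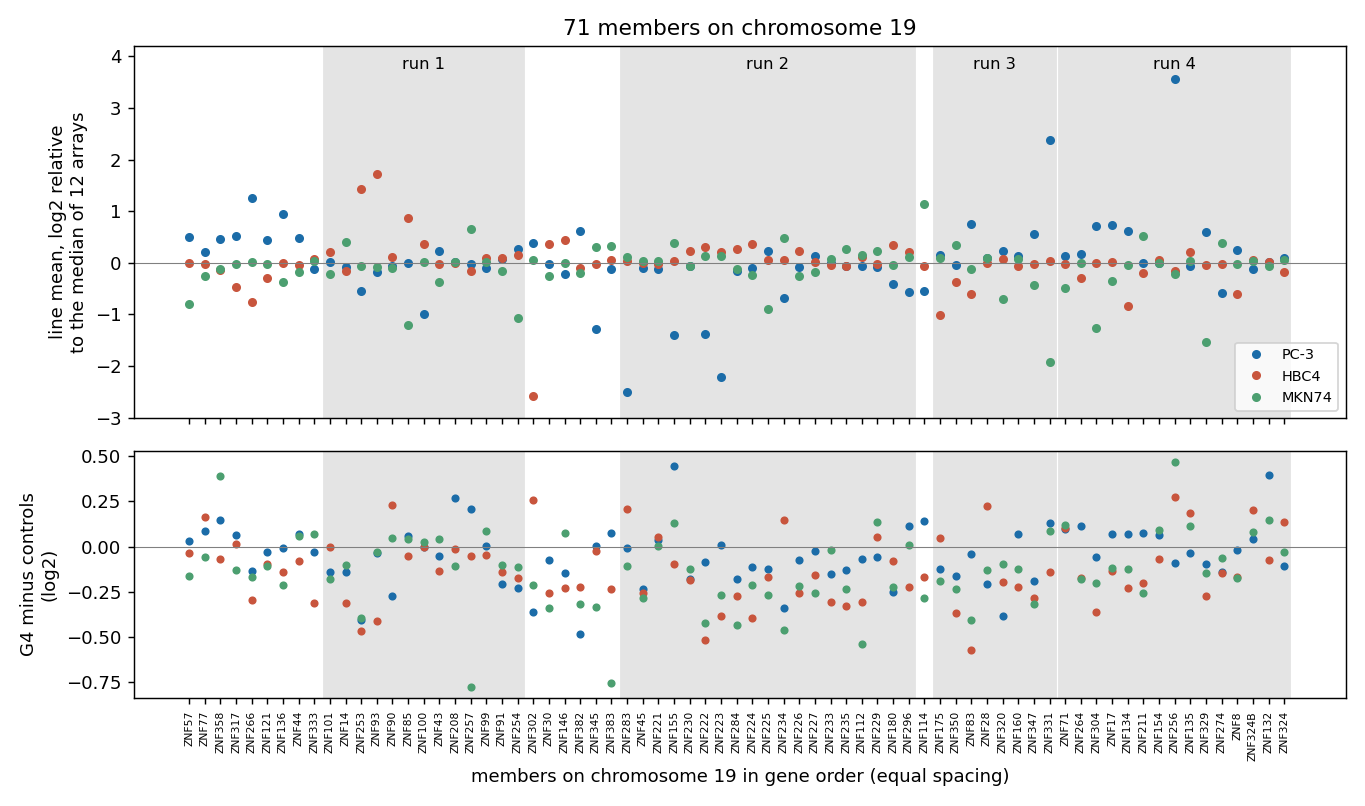
The 71 members on chromosome 19 in gene order at equal spacing, with the mean of each line (colours; upper panel, log2 relative to the median of 12 arrays) and the difference of G4 oligonucleotides minus controls in each line (lower panel, log2). Grey bands are the 4 runs; PC-3 is the lowest line for 13 of 19 members in the second band and the highest for 10 of 15 in the fourth.

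Whether the members responded to a transfected RNA as such was asked by comparing (uuaccc)4 with the reagent alone, a comparison between controls that the choice of the class did not use. No member passed (background 0%, no gene of 19775 passed). At an unadjusted p under 0.05, limma found 6 of 184 members (3.26%) and 592 of all genes (2.99%). The median difference over members was -0.0045 on the log2 scale, and 98 of 184 were lower, against 52.9% of all genes. The 4 with the smallest p were ZNF251, ZNF43, ZNF354B and ZNF32. ZNF43, a KRAB gene, differed by -0.25 in PC-3, -0.17 in HBC4 and -0.27 on the MKN74 arrays. ZNF354B differed by 0.34, 0.24 and 0.11 in the same order, ZNF251 by -0.11, -0.36 and -0.19, and ZNF32 by -0.25, -0.10 and -0.27. Each kept its sign in all 3 lines, which a choice by smallest p favours, and each had an adjusted p of 0.99992 by limma.

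The G4 RNA and the G4 DNA were compared directly in (uuaggg)4 minus AS1411, also not used by the rule. No member passed (background 0%, no gene passed), and at an unadjusted p under 0.05 there were 7 members (3.80%) and 873 genes (4.41%). The median over members was 0.0068, and 87 of 184 were lower with (uuaggg)4, against 49.6% of all genes. ZNF182, an X-linked KRAB gene, had the smallest p. It read 1.53, 1.62, 1.37 and 0.99 in PC-3, -0.19, -0.28, -0.32 and -0.64 in HBC4 and 0.03, 0.16, -0.06 and -0.33 on the MKN74 arrays. AS1411 was the lowest array in each line, and (uuaggg)4 exceeded it by 0.38, 0.32 and 0.27 (unadjusted p = 0.0011, adjusted p = 0.99989, limma). ZNF397 exceeded by 0.23, 0.23 and 0.19, ZNF195 by 0.20, 0.22 and 0.23, and ZNF37A by 0.11, 0.45 and 0.37 (adjusted p = 0.99989 for each, limma). Missing the threshold does not show that the oligonucleotides acted alike on these genes.

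Whether the G4 difference depended on the line was tested as the interaction of oligonucleotide class and line. Of the members, 2 passed (1.09%, background 1.29%), ZNF257 and ZNF234, both KRAB genes on chromosome 19. ZNF257 read 1.21, 0.89, 0.14 and 0.41 in MKN74, -0.18, -0.08, 0.08 and 0.08 in PC-3 and -0.15, -0.11, -0.19 and -0.17 in HBC4. The G4 arrays lay below the control arrays in MKN74 and above them in PC-3, by differences of -0.78 in MKN74, -0.05 in HBC4 and 0.21 in PC-3 (interaction, limma, adjusted p = 0.0335). ZNF234 read -0.50, -0.51, -0.77 and -0.92 in PC-3, -0.02, -0.03, 0.09 and 0.15 in HBC4 and 0.74, 0.68, 0.20 and 0.29 on the MKN74 arrays. Its differences were -0.34, 0.15 and -0.46 (interaction, limma, adjusted p = 0.0467). Both calls were lost when any 1 of the 12 arrays was left out, with adjusted p from 0.0502 to 0.107 for ZNF257 and from 0.0531 to 0.152 for ZNF234. ZNF383 came next with differences of 0.08 in PC-3, -0.23 in HBC4 and -0.75 on the MKN74 arrays (adjusted p = 0.0535). ZNF133 followed (adjusted p = 0.135).

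**Figure D3:**
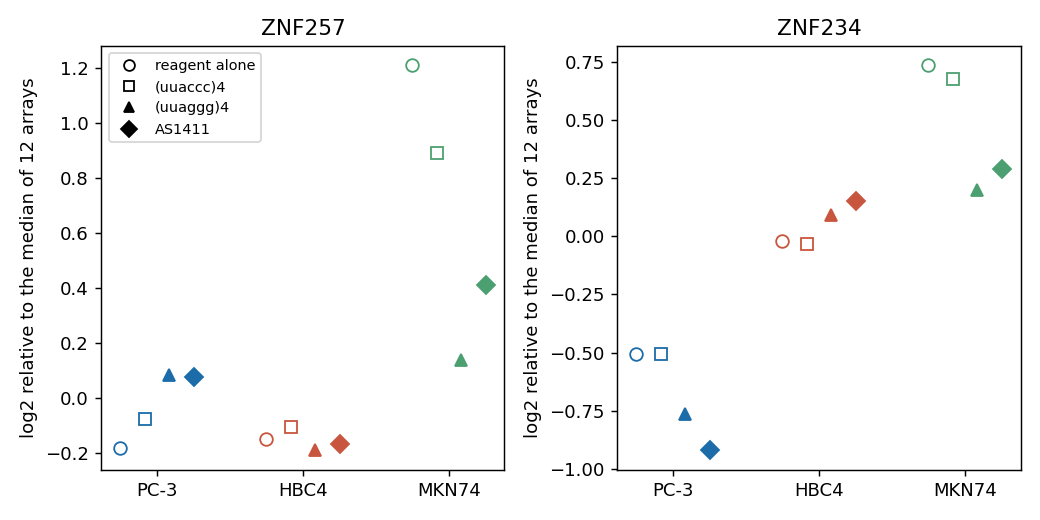
Log2 values relative to the median of the 12 arrays of ZNF257 and ZNF234, by line (colours) and treatment (open marks are controls, filled marks G4 oligonucleotides), 1 array per mark. The MKN74 values of ZNF257 are 1.21 and 0.89 in the controls and 0.14 and 0.41 with the G4 oligonucleotides, while its HBC4 values lie between -0.19 and -0.11.

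The remaining values describe the contrast through which the class was chosen. The average of both G4 oligonucleotides (AS1411, (uuaggg)4) less the average of both controls was below 0 for 127 of 184 members (69.0%) and for 43.7% of all genes. The member median was -0.075, with quartiles of -0.16 and 0.017, and the median of all genes was 0.017. The medians by line were -0.036 in PC-3, -0.080 in HBC4 and -0.105 on the MKN74 arrays, with 108, 124 and 125 members below 0. In that order these were 58.7%, 67.4% and 67.9%, against 45.7%, 44.3% and 47.6% of all genes. Of the members, 64 were below 0 in all 3 lines (34.8%, against 14.8% of all genes). Both G4 arrays lay below both control arrays for 63 members in PC-3 (34.2%, background 22.2%), 80 in HBC4 (43.5%, background 20.1%) and 86 in MKN74 (46.7%, background 21.9%). This held in each of the 3 lines for 24 members (13.0%, background 3.52%). The other numbered genes, ZNF400 to ZNF999, had a median of -0.052 with 68.7% of 268 below 0. The medians were -0.095 for 7 ZKSCAN genes, -0.048 for 18 ZSCAN genes, -0.036 for 41 ZBTB genes and -0.023 for 19 ZFP genes.

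**Figure D4:**
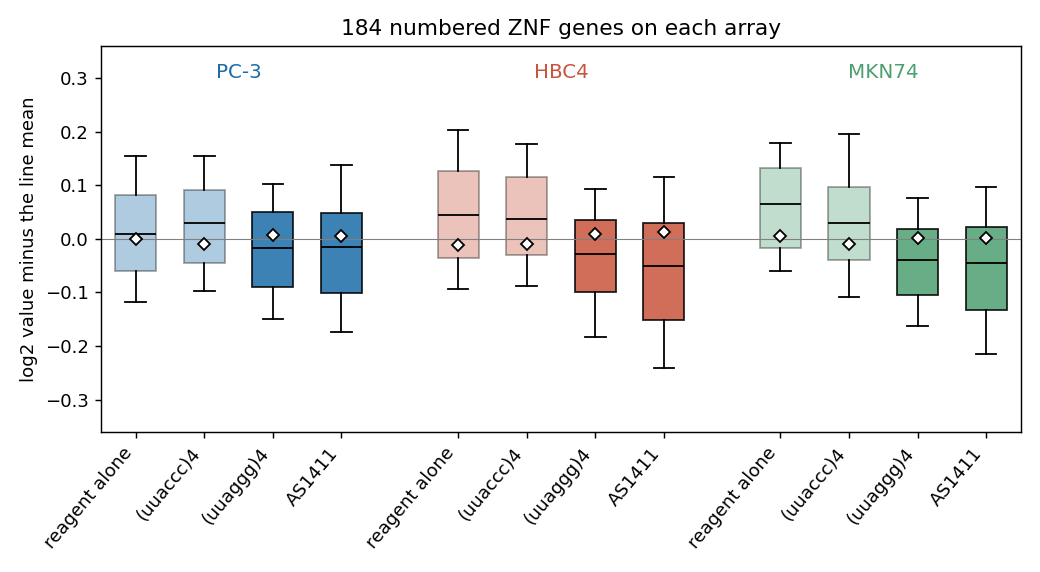
Distribution over the 184 members of the log2 value minus the line mean, for each of the 12 arrays (boxes are quartiles with the median, whiskers the 10th and 90th percentiles, white diamonds the median of all genes). The member medians are 0.0086 to 0.065 on the 6 control arrays and -0.052 to -0.016 on the 6 G4 arrays.

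By oligonucleotide, (uuaggg)4 minus (uuaccc)4 had a member median of -0.058, with 125 members below 0 (67.9%, background 44.3%). AS1411 minus reagent alone had one of -0.089, with 128 below 0 (69.6%, background 46.3%). Of ZNF400 to ZNF999, 56.7% were below 0 in the first and 71.6% in the second. In the fit across all genes, 9 members were past the threshold downward with G4 (4.89%, background 1.65%) and 0 upward (background 0.961%). These calls are not used to single out members. For (uuaggg)4 against (uuaccc)4 alone no member was lower past the threshold (background 0.202%), and for AS1411 against reagent alone 2 were (1.09%, background 0.415%). The count of 9 was 4 to 7 when 1 of the 12 arrays was left out and 0 to 4 when 1 line was. Nothing is read from these counts, since the same contrast chose the class. Of the 122 members with several probe sets, 48 had all of them lower with G4, 16 had all higher and 58 were mixed.

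**Figure D5:**
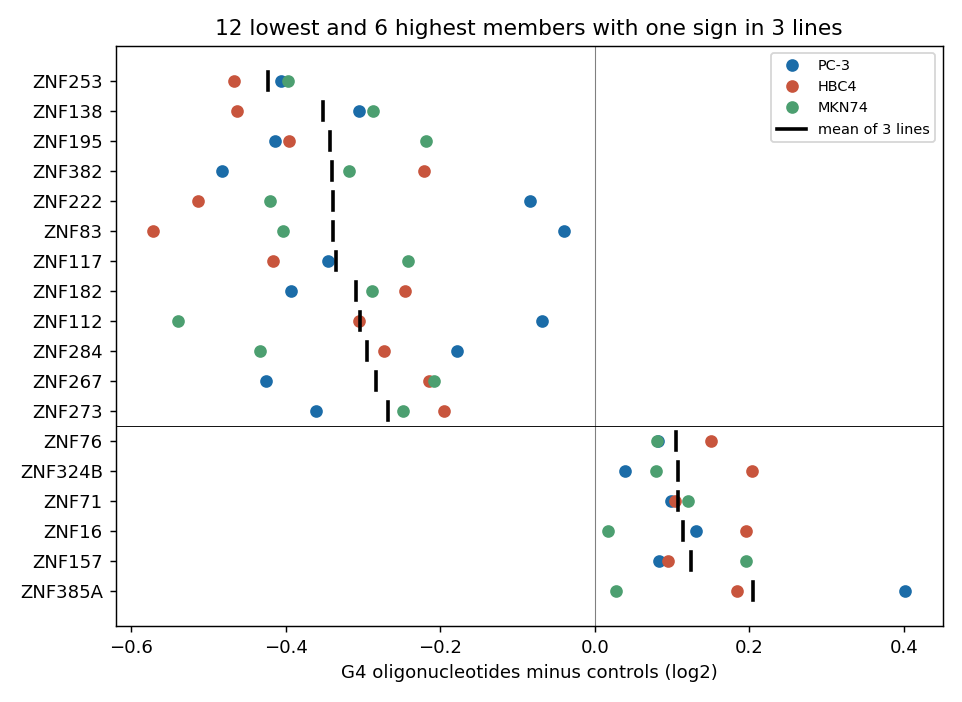
Log2 difference of G4 oligonucleotides minus controls in each line (points) and its mean over 3 lines (bars), for the 12 lowest and the 6 highest members with 1 sign in all lines. ZNF253 lies lowest at a mean of -0.42 and ZNF385A highest at 0.20.

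ZNF253 was the lowest member. It read -0.24, -0.44, -0.89 and -0.61 in PC-3, 1.64, 1.69, 1.26 and 1.15 in HBC4 and 0.13, 0.17, -0.22 and -0.28 on the MKN74 arrays, and both G4 arrays lay below both controls in every line. The mean difference was -0.42 ± 0.04 (SD over 3 lines), and its 2 probe sets gave -0.43 and -0.42. ZNF382, a KRAB repressor that is silenced by methylation in several tumours, read 0.95, 0.76, 0.37 and 0.38 in PC-3, 0.14, -0.13, -0.14 and -0.30 in HBC4 and -0.10, 0.01, -0.34 and -0.38 on the MKN74 arrays, a mean difference of -0.34 ± 0.13. ZNF195 read 0.39, 0.31, 0.03 and -0.17 in PC-3, 0.33, 0.36, 0.06 and -0.16 in HBC4 and -0.03, -0.15, -0.19 and -0.43 on the MKN74 arrays, a mean difference of -0.34 ± 0.11. In ZNF195, as in ZNF182 above, AS1411 was the lowest array in each line. ZNF189 and ZNF45, singled out for small SDs over the lines after their values were seen, were at -0.27 ± 0.01 and -0.26 ± 0.02. ZNF189 and ZNF195 each rest on 1 probe set, ending in _s_at, a type that can match several transcripts.

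ZNF138, ZNF273 and ZNF117, 3 neighbours on chromosome 7, were among the members with the lowest G4 differences of 1 sign in all 3 lines. ZNF138 read 0.20, 0.07, -0.14 and -0.21 in PC-3, 0.60, 0.53, 0.10 and 0.11 in HBC4 and -0.38, -0.02, -0.36 and -0.60 on the MKN74 arrays, a mean difference of -0.35 ± 0.10. ZNF117 read 0.23, 0.22, -0.17 and -0.08 in PC-3, 0.61, 0.50, 0.19 and 0.09 in HBC4 and -0.42, -0.32, -0.63 and -0.59 on the MKN74 arrays, a mean difference of -0.33 ± 0.09. RefSeq lists a read-through transcript of ZNF117 with the retroviral gene ERV3-1, and the probe sets may read both, so its value is uncertain. In MKN74 the reagent array of ZNF138 lay among its G4 arrays, while the classes of ZNF117 separated in all 3 lines. ZNF273 had a mean difference of -0.27 ± 0.08. With ZNF107 and ZNF92, which were -0.21 ± 0.17 and -0.13 ± 0.04, these 5 neighbours, grouped after their values were seen, had means below 0 in all 3 lines for 5 of 5, and HBC4 was the highest line for 5 of 5. In each of the 5 the lowest probe set was one ending in _x_at, a type that can match several transcripts. For ZNF138 that probe set gave -0.55 and the other -0.16. For ZNF117 the 4 probe sets ran from -0.63 to -0.13, and for ZNF273 the 2 gave -0.33 and -0.21. For ZNF107 the probe sets disagreed in sign, at -0.64 (_x_at), -0.09 (_s_at) and 0.10 (_at), so its mean rests on the first. The lead of HBC4 also depended on the probe set. In the _at probe sets of ZNF138, ZNF107 and ZNF273 the highest line was MKN74, at 0.075, 0.31 and 0.18. HBC4 lay at -0.10, -0.04 and 0.10 there, and at 0.77, 1.26 and 0.25 in their _x_at probe sets. HBC4 was highest in every probe set of ZNF117 and ZNF92. Whether the _x_at probe sets read more than 1 of the neighbours was not tested.

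Among the chromosome 19 runs, the run from ZNF283 to ZNF296 had 15 of 19 members lower with G4, 12 of them in all 3 lines, with a median of -0.18. Within it ZNF222, ZNF112 and ZNF284 were lowest, at -0.34 ± 0.23, -0.30 ± 0.24 and -0.29 ± 0.13. Each has 1 probe set, ending in _x_at for ZNF222 and in _s_at for ZNF112. The classes of ZNF112 overlapped in PC-3, where its values were -0.08, 0.01, -0.05 and -0.15, and separated in MKN74, where they were 0.50, 0.35, -0.01 and -0.22. The run from ZNF175 to ZNF331 had 7 of 8 lower with a median of -0.16, that from ZNF101 to ZNF254 had 8 of 13 with -0.11, and that from ZNF71 to ZNF324 had 8 of 15 with -0.060. ZNF83, in the run from ZNF175 to ZNF331, read 0.71, 0.84, 0.81 and 0.66 in PC-3, -0.29, -0.35, -0.81 and -0.97 in HBC4 and 0.09, 0.08, -0.26 and -0.38 on the MKN74 arrays. Its classes separated in HBC4 and MKN74 and overlapped in PC-3. The 113 members on other chromosomes had 76 lower and a median of -0.048. Members whose window held the G-run pattern (24) had a median of -0.090, and those without (134) -0.075. Members with the ACTACA pattern (24) had a median of -0.14, with 16 lower, and those without (134) -0.074, with 97 lower. Of these 24, 10 lie in the run from ZNF283 to ZNF296, so the pattern and the run cannot be told apart here.

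Some members had values above 0 in all 3 lines. ZNF385A, a p53 cofactor that binds RNA, read -0.52, -0.45, -0.10 and -0.06 in PC-3, 0.05, -0.35, -0.05 and 0.12 in HBC4 and 0.28, 0.29, 0.24 and 0.38 on the MKN74 arrays, a mean difference of 0.20 ± 0.19. In PC-3 both G4 arrays lay above both controls, and in HBC4 and MKN74 the classes overlapped. ZNF157, ZNF16 and ZNF71 followed at 0.12 ± 0.06, 0.11 ± 0.09 and 0.11 ± 0.01.

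Members with a well-known role were taken from a set of 12. ZNF91, which silences SVA retrotransposons, had a difference of -0.15 ± 0.05 (5 of its 7 probe sets lower), and ZNF93 of -0.16 ± 0.22. ZNF274, which brings SETDB1 to the ends of other zinc finger genes, differed by -0.11 ± 0.05 and was lowest in PC-3 (-0.58 ± 0.11) and highest in MKN74 (0.38 ± 0.04, F test, adjusted p = 1.68e-06). ZNF350 (ZBRK1), a partner of BRCA1, differed by -0.26 ± 0.10, but its 2 probe sets disagreed, at -0.58 and 0.06, so the mean rests on the first. ZNF217, an oncogene amplified in breast cancer, read -0.01, 0.09, -0.35 and -0.40 in HBC4 and differed by -0.21 ± 0.19 over the lines, with no line difference past the threshold (F test, adjusted p = 0.128). ZNF281, a regulator of stemness and of the epithelial to mesenchymal transition, was highest in PC-3 (1.21 ± 0.05, against -0.11 ± 0.03 in HBC4 and -0.03 ± 0.09 in MKN74, F test, adjusted p = 5.38e-09) and differed by -0.07 ± 0.06. ZNF148, which binds GC-rich promoters, was highest in HBC4 (0.35 ± 0.10, F test, adjusted p = 6.24e-06). ZNF207, which takes part in spindle assembly, and ZNF24 differed by -0.02 ± 0.05 and -0.08 ± 0.02. ZNF143, whose site is the searched pattern, had line means of 0.05 ± 0.15 in PC-3, -0.13 ± 0.06 in HBC4 and 0.12 ± 0.13 on the MKN74 arrays (F test, adjusted p = 0.0435) and a G4 difference of 0.07 ± 0.13. Its 2 probe sets disagreed on the lines, with MKN74 means of 0.354 and -0.115 and HBC4 means of -0.259 and 0.0017.

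The corepressor machinery behind KRAB proteins was read from a list of 36 genes, of which 34 were measured. None of them passed (uuaccc)4 against reagent alone, (uuaggg)4 against AS1411, the interaction or the G4 contrast, and 30 of 34 (88.2%) passed the F test between lines. Of all genes, 70.6% passed that F test, 1.29% the interaction, 1.65% the G4 contrast downward and 0.961% upward, and 0% either of the other comparisons. At an unadjusted p under 0.05 limma found 0 of 34 for (uuaccc)4 against reagent alone and 1 of 34 for (uuaggg)4 against AS1411. Their median G4 difference was 0.014, with 16 of 34 below 0. TRIM28, the scaffold, had means of -0.04 ± 0.05 in PC-3, -0.11 ± 0.18 in HBC4 and 0.58 ± 0.14 on the MKN74 arrays, and a G4 difference of 0.13 ± 0.17. SETDB1, the methyltransferase, had means of -0.02 ± 0.05, 0.29 ± 0.07 and -0.37 ± 0.10 in the same order, and a G4 difference of 0.02 ± 0.08. The widest line difference of the list was that of CBX1, which encodes the heterochromatin protein HP1 beta, singled out after its values were seen. It read 0.67, 0.59, 0.61 and 0.62 in PC-3, and -7.52, -7.32, -7.25 and -7.95 in MKN74, on 1 probe set.

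The upper number of the class is a matter of naming. The last members inside it, ZNF396, ZNF397 and ZNF398, had G4 differences of -0.04, -0.03 and -0.11, and the first genes outside it, ZNF404, ZNF407 and ZNF408, had 0.17, -0.06 and 0.02.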

How the data were processed

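The data are 12 Affymetrix arrays (3 lines, 4 treatments, no repeats). The deposited values are log2 expression values for 54675 probe sets; per the submitters' processing notes they come from RMA, whose version is not given in the sources used here. They were found centred on a median of 0 per probe set (within 5e-07), which no label explains, so no level, depth or detection is available, and the number of arrays limits the precision. Log base 2 was taken as usual for RMA.

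Probe sets naming 1 gene (41091) were averaged per gene, giving 19775 genes; 1801 naming several genes (18 of them a member), 11721 unnamed and 62 controls were left out. Names are those of the platform annotation, which can be old, and 41037 probe sets matched RefSeq genes of GRCh38.p14 by gene identifier. The members had 404 probe sets, 108 of them with names ending in _x_at or _s_at, which can match several transcripts; 62 members had 1 probe set.

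limma 3.58.1 in R 4.3.3 (lmFit, eBayes without trend) fitted treatment and line on all genes, with 6 residual degrees of freedom and line as the replicate block, since replicate numbers mark the same line; the interaction used class within line. P-values were adjusted by Benjamini-Hochberg across the 19775 genes. SDs of treatment differences are over 3 lines. The scripts were tested on simulated data.

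Members and lists were chosen with earlier results of these data known. Named genes follow the rule of up to 6 highest and 4 lowest per line past the F test, the 3 smallest line ranges, the smallest p of each treatment test, the 12 lowest and 6 highest G4 differences with 1 sign in 3 lines, 12 genes of known role, 3 genes on each side of the number limit, TRIM28 and SETDB1; others are named as chosen later. Protein features were not analysed here, and the labels name no batch. Alternatives were other normalizations, gene summaries, fits and left-out arrays.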

Additional observations from a re-analysis of the deposited data

Results flagged for a closer look

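ZNF257 and ZNF234 had G4 differences that differed between the 3 cell lines by the interaction test of limma, with adjusted p-values of 0.0335 and 0.0467. They were 2 of 184 members (1.09%), against a background of 1.29% of all genes, and both calls were lost when any 1 of the 12 arrays was left out. ZNF257 was lower with G4 oligonucleotides in MKN74 (-0.78) and higher in PC-3 (0.21). ZNF234 was lower in PC-3 (-0.34) and MKN74 (-0.46) and higher in HBC4 (0.15).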

How the results depend on the processing

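Every named position of a line kept its direction and passed the F test under all alternatives that gave a value, and the count of members that differed between lines stayed within 147 to 154 when 1 array was left out (156 with all). No member passed (uuaccc)4 against reagent alone or (uuaggg)4 against AS1411 under any alternative, the fit without the replicate block included (0 and 0). The count of members in the interaction (2) was 1 with the probe set of the largest SD of line means, 1 without probe sets ending in _x_at or _s_at, and 0 to 1 when an array or line was left out. The count of members lower with G4 past the threshold (9) was 14 with arrays centred on the median of all genes, 4 without those probe sets, 0 without the replicate block and 0 to 7 when an array or line was left out. The replicate block pairs arrays of the same line. The median G4 difference of ZNF400 to ZNF999 (-0.052) was -0.071 with arrays centred and -0.076 with the probe set of the largest SD, and -0.061 to -0.044 with arrays or lines left out. The member median (-0.075) ran from -0.079 to -0.055 in the latter. No call reversed, but printed G4 differences close to 0 changed sign when an array or line was left out: ZNF207 (-0.041 to 0.009 over left-out arrays), and, over left-out lines, ZNF143 (-0.00097 to 0.12), ZNF397 (-0.072 to 0.025), ZNF408 (-0.058 to 0.097) and SETDB1 (-0.025 to 0.058). Without probe sets ending in _x_at or _s_at, ZNF207 was 0.013 and SETDB1 -0.16, and with arrays centred SETDB1 was -0.0014. With 1 array per line and treatment, small differences cannot be separated from the spread between arrays, and centred values hide probe sets near background.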
